A study of Homo sapiens with 8 samples.

Results

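The genes described here are 54 human genes of DNA replication and of the G1/S step of the cell cycle, listed by what their products do. The rule uses no measured value, but earlier results of these data were known when the list was made. Of these, 53 were found by gene symbol among the 25192 genes of the expression files, and PRIM2 was not analysed here. By role they were 12 genes of origin licensing, 8 of origin firing, 6 of the sliding clamp and its loader, 8 of the polymerases and primase, 2 of lagging-strand processing, 6 of nucleotide supply and uracil removal, 5 of chromatin behind the fork and histone mRNA, and 6 of G1/S control. All 53 passed the filter on low counts in every comparison.

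Before a cell enters S phase, the origin recognition complex, CDC6 and CDT1 load the ring-shaped MCM2 to MCM7 helicase onto replication origins, and CDC45 and the GINS complex then turn the ring into an active helicase. Behind it, the clamp PCNA, opened by replication factor C, tethers the polymerases while ribonucleotide reductase, TYMS and other enzymes supply the deoxynucleotides. Many of these genes are transcribed by E2F factors once cyclin E and its kinase have inactivated the retinoblastoma protein, so that their mRNAs are at their highest around the G1/S boundary, and they are commonly used as markers of proliferating cells in colorectal tumours.

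The study was about the part that PRDX2 (PrxII), a cytosolic peroxidase that removes hydrogen peroxide, plays in intestinal tumours. It used mRNA sequencing to look at transcription that depends on β-catenin and TCF. HT29 and SW480, both established human colorectal adenocarcinoma lines that carry mutant APC, received either control siRNA (siCon) or siRNA against PRDX2 (siPrdx2), and total RNA was taken after 36 h for poly(A) mRNA sequencing. Each of the 4 groups (HT29 siCon, HT29 siPrdx2, SW480 siCon, SW480 siPrdx2) holds 2 libraries, 8 in all. The labels call the experiments duplicates without saying that they were separate cultures, so that p-values measure the spread between these libraries, which may be technical, and each group is 1 cell line under a transient knockdown.

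The 8 libraries held between 8857442 and 10164137 estimated read counts, so that 3 counts correspond to between 0.295 and 0.339 CPM (counts scaled to the size of each library). PRDX2 itself was lower after its siRNA in both lines, by a log2 fold change of -0.87 ± 0.05 (SE) in HT29 (148 and 154 CPM with siCon, 82.4 and 83.2 with siPrdx2) and of -1.70 ± 0.12 in SW480 (209 and 246 against 69.5 and 70.7). EPCAM, which marks epithelium, was at 727 to 786 TPM (transcript abundance scaled by length and library) in HT29 and 340.2 to 412 in SW480. The colonic markers KRT20 and LGALS4 were close to 0 in SW480, at 0.79 to 1.34 and 0.57 to 1.03 TPM. Other epithelial markers varied. In SW480 and HT29, CDX2 was at 18.8 to 31.5 and 8.23 to 13.7 TPM, and VIL1 at 42.6 to 50.8 and 126 to 133. KRT19 was at 1063 to 1405 and 1065 to 1264 TPM, and CDH1 at 12 to 14.7 and 253 to 270.3. Of the leukocyte markers PTPRC was at 0 in every library and CD3E reached at most 0.16 TPM. CD68 was at 19.2 to 27.9 TPM in HT29 and 12.6 to 21.7 in SW480, and CD14 at 6.9 to 9.22 and 2.94 to 5.72. The pair of SW480 siCon libraries stands apart from the other pairs: their counts differed by a chi-square of 10.9 per degree of freedom, against 1.42, 1.69 and 2.11 in the other 3 pairs. Every comparison with SW480 rests on that pair, so its counts and leading genes are also given without either of these libraries.

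The log2 ratio of replicate 2 over replicate 1 in the SW480 siCon pair rose with the GC content of the transcript, with a Spearman rho of 0.82 across the 53 genes and of 0.72 across 13452 genes. Across the 53 genes that ratio ran from -0.61 to 0.61, whereas it stayed between -0.24 and 0.18 in the HT29 siCon pair. A weaker GC trend was present there too, with a rho of 0.39 across the 53 genes and 0.19 across 12387 genes. In the siPrdx2 pairs rho across the 53 genes was 0.19 in HT29 and 0.14 in SW480. Each of these correlations is across genes within 1 pair of libraries and is given as a description. The log2 fold change after PRDX2 knockdown followed GC content in SW480 as well (rho 0.56 across the 53 genes, 0.53 across all) and hardly in HT29 (rho -0.13 and -0.06).

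**Figure D1:**
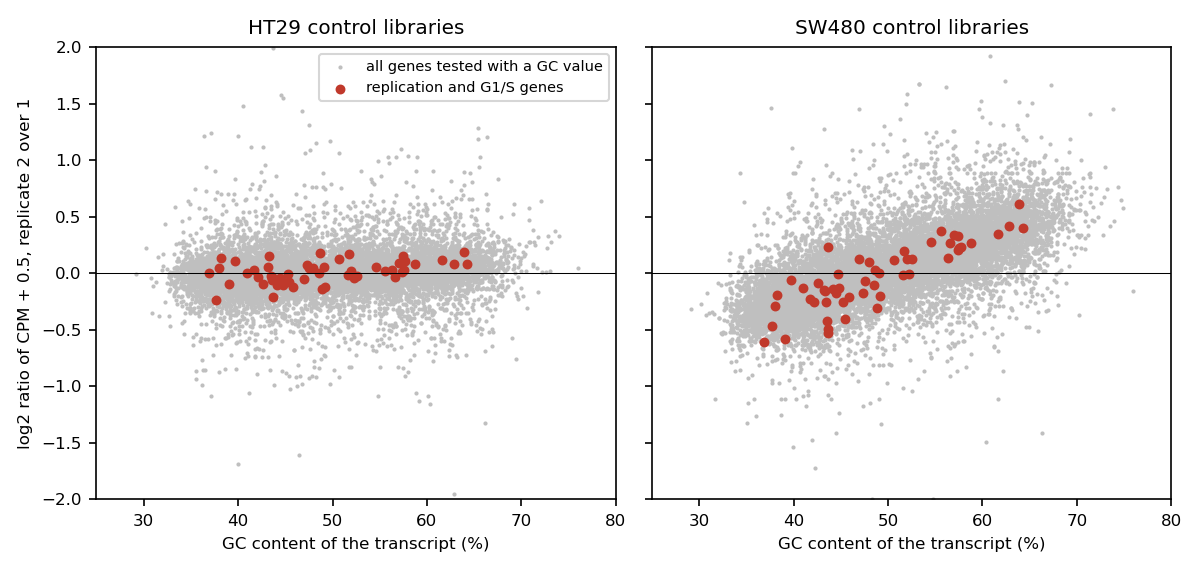
Log2 ratio of the 2 control libraries of each line (CPM, 0.5 added) against the GC content of each gene's transcript in percent, with all tested genes in grey and the 53 replication and G1/S genes in red; genes past the axis limits are not drawn. In HT29 the red points stay near 0, and in SW480 they climb from -0.61 to 0.61 as GC content increases.

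Promoters of these genes are shown for the E2F motif. The list was not chosen by promoter letters, but many of its genes are known to be transcribed by E2F factors. A high share of promoters with the motif is therefore not an independent result. RefSeq promoters (GRCh38.p14, 250 bases before to 50 after the start) were matched by symbol for 48 of the 54 genes, not for MCM4, MCM5, GINS4, POLD3, CCNE2 and E2F8. A gene was counted if any of its promoters held a match to an E2F motif (TTTCCCGC, TTTCGCGC, TTTGCCGC or TTTGGCGC on either strand). That held for 25 of the 48 genes, 52.1%, against 3.99% of all 27305 gene symbols with a promoter of the same length. The stretches below, each 60 bases before a start and read 5′ to 3′ on the gene's strand with the matches in capitals, belong to 6 genes that rose in HT29 cells (DTL, MCM7, PCNA, POLA2, E2F1, E2F2) and to 2 that did not pass the test there (MCM6, CDT1).
DTL chr1:212035688-212035747 (plus strand): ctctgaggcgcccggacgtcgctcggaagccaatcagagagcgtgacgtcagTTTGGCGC
MCM7 chr7:100101398-100101457 (minus strand): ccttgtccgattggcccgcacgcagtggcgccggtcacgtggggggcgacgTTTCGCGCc
PCNA chr20:5126648-5126707 (minus strand): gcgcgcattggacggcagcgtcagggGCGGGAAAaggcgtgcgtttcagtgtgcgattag
POLA2 chr11:65261883-65261942 (plus strand): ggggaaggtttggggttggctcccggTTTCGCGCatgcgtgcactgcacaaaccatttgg
E2F1 chr20:33686386-33686445 (minus strand): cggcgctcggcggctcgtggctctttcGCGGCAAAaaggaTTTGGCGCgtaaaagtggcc
E2F2 chr1:23531242-23531301 (minus strand): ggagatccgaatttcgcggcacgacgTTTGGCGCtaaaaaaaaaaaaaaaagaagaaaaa
MCM6 chr2:135876500-135876559 (minus strand): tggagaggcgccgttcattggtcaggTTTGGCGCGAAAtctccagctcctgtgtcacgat
CDT1 chr16:88803728-88803787 (plus strand): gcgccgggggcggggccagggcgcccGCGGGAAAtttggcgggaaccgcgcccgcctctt
In MCM6 the capitals are a pair of overlapping matches on opposite strands. The motif was present in 13 of the 23 matched genes that rose in HT29 cells, 56.5%, and in 12 of the 24 others with a row, 50%. The CHR element of G2 and mitosis genes (TTTGAA on either strand), counted in the same way, was present in 5 of the 48 genes, 10.4%. It was present in 18.2% of all gene symbols with a promoter and in 11 of 16 matched G2 and mitosis genes, 68.8%. A match describes letters in this window and is not a measured binding site.

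With control siRNA, the levels of the 53 genes were compared in TPM, which allows a comparison between genes. In HT29 siCon cells PCNA was the highest at 441 ± 1.87 TPM (mean ± SD, n = 2), followed by the helicase subunit MCM7 at 337 ± 4.94 and by thymidine kinase TK1 at 251 ± 10.2. The lowest were the transcription factor E2F2 at 5.26 ± 0.396 and the GINS subunit GINS4 at 6.82 ± 0.156. In SW480 siCon cells PCNA and MCM7 again led, at 784 ± 104 and 660.4 ± 66.6 TPM, with spreads that overlap, and E2F2 was again the lowest at 8.12 ± 0.799. Although the MCM2 to MCM7 proteins work as a ring, their mRNAs were uneven: in HT29 siCon cells MCM5 was at 72.2 ± 3.13 TPM, MCM6 at 81.2 ± 1.92, MCM4 at 142 ± 3.73, MCM3 at 149.5 ± 1.62, MCM2 at 152 ± 0.757 and MCM7 at 337. MCM7 was further above MCM2 than any of these SDs. The median over the 53 genes was 57 TPM in HT29 siCon and 66.5 TPM in SW480 siCon cells.

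**Figure D2:**
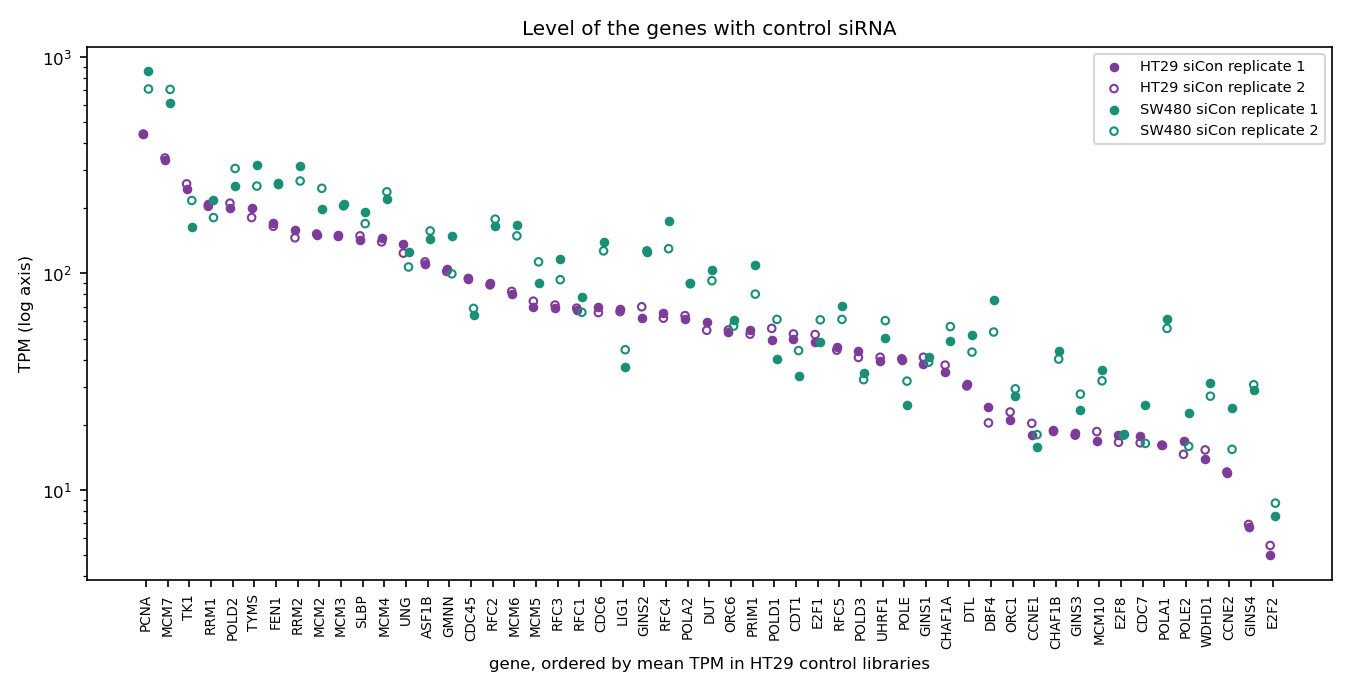
Level of the 53 genes in each control siRNA library, in TPM on a log axis, ordered by the mean in HT29; purple circles are HT29 and green circles SW480, filled for replicate 1 and open for replicate 2. POLA1 (16.1 against 58.5 TPM) and GINS4 (6.82 against 29.7) lie far apart between the lines, and LIG1 (67.4 against 40.7) lies higher in HT29.

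Between the control cells of the lines, 38 of the 53 genes differed in edgeR's quasi-likelihood test (adjusted p under 0.05), a share close to the 67.5% of all 14346 genes tested, 32 of them higher in SW480 (35.7% of all genes were) and 6 higher in HT29 (31.8%). The median log2 difference, SW480 over HT29, was 0.40 for the 53 genes and 0.04 for all genes, with 38 of the 53 above 0 (51.9% of all genes) and 15 below it (48.1%). At an unadjusted p under 0.05 were 40 of the 53, against 70.3% of all genes. The widest gap was in GINS4, at 11.9 and 12.3 CPM in HT29 and 50.1 and 53.5 in SW480 (3.99-fold, SE 0.14 on the log2 scale, adjusted p = 3.6e-06). POLA1, the catalytic subunit of polymerase alpha, which starts each new strand with primase, was at 40.5 and 40.6 CPM in HT29 and 151 and 138 in SW480 (1.74 ± 0.11, adjusted p = 2.59e-06). DBF4, the activator of the CDC7 kinase, differed by 1.40 ± 0.17, the clamp loader subunit RFC4 by 1.12 ± 0.15 and the chromatin assembly subunit CHAF1B by 1.03 ± 0.13. For all of these genes the TPM of the lines did not overlap. CPM were scaled within each line, so the differences come from the fit and not from the ratio of these CPM. The paper grew HT29 and SW480 in different media, and its sequencing methods describe HT29 only. Line can therefore not be told apart from culture medium, or from any difference in library processing.

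All 6 helicase subunits MCM2 to MCM7 were higher in SW480 by 0.34 to 0.84 on the log2 scale, and so were CDC6 (0.85 ± 0.11), PCNA (0.70 ± 0.11), the small reductase subunit RRM2 (0.80 ± 0.11), the clamp loader subunit RFC2 (0.81 ± 0.11) and thymidylate synthase TYMS (0.45 ± 0.13). CCNE2 (0.58 ± 0.21), E2F2 (0.50 ± 0.17) and the methylated-DNA reader UHRF1 (0.34 ± 0.13) also passed the test. The 6 genes higher in HT29 were DNA ligase LIG1 (-0.85 ± 0.13), CDC45 (-0.63 ± 0.11), the polymerase epsilon subunit POLE (-0.63 ± 0.14), the licensing factor CDT1 (-0.53 ± 0.15), TK1 (-0.53 ± 0.14) and the polymerase delta subunit POLD3 (-0.47 ± 0.11). E2F1 (0.00 ± 0.14), the CDT1 inhibitor GMNN (0.12 ± 0.17), the histone mRNA binding protein SLBP (0.19 ± 0.11), the large reductase subunit RRM1 (-0.17 ± 0.11) and CCNE1 (-0.31 ± 0.17) did not pass the test. With a correction for GC content the split was 22 higher in SW480 and 15 higher in HT29, the median of the 53 genes was 0.10, that of all genes moved from 0.04 to -0.22, and 4282 of 10907 calls over all genes were higher in SW480, against 5122 of 9681 without it. Under that correction MCM2 to MCM7 ran from 0.01 to 0.57, and MCM3, MCM5, TYMS, E2F2 and UHRF1 no longer passed the test. Limma on TPM moved the median of all genes to 0.15 and that of the 53 genes to 0.52. Without HT29 siCon replicate 2 the test called 18 of the 53 genes where it called 51.2% of all genes, and without replicate 1 it called 21 against 51.5%. Without SW480 siCon replicate 1 or 2 it called 42 or 45, where 75.7% or 77.5% of all genes were called. Without either of the latter POLA1 stayed at 1.69 and 1.80, CDC6 at 0.80 and 0.92 and LIG1 at -0.71 and -0.99, whereas MCM5 ran from 0.19 to 0.54 and TK1 from -0.75 to -0.32.

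In HT29 cells, PRDX2 knockdown was accompanied by higher levels of 25 of the 53 genes and by lower levels of none (edgeR's quasi-likelihood test, adjusted p under 0.05). Among all 12961 genes tested, 17.6% passed that test, 7.76% as higher and 9.82% as lower, so that 1006 of 2279 calls were higher. With limma on TPM 1252 of 1800 calls were higher, and 25 of the 53 genes were called, all higher, with a median of 0.22 for the 53 genes and 0.06 for all genes. The 25 increases were small, from 1.08-fold to 1.4-fold, and the median log2 fold change of all 53 genes was 0.16 against 0.00 for all genes tested, with 46 of the 53 above 0 (49.9% of all genes) and 34 at an unadjusted p under 0.05 (30.2%). In 39 genes both siPrdx2 libraries lay above both siCon libraries, which held for 28.3% of all genes, and the reverse held in LIG1 and TK1 only, against 28.7% of all genes. Summed over the 53 genes, TPM was 4507 and 4504 in the siCon libraries and 5192 and 5118 in the siPrdx2 libraries. In bulk RNA, more cells in S phase and more RNA of these genes per cell cannot be told apart.

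**Figure D3:**
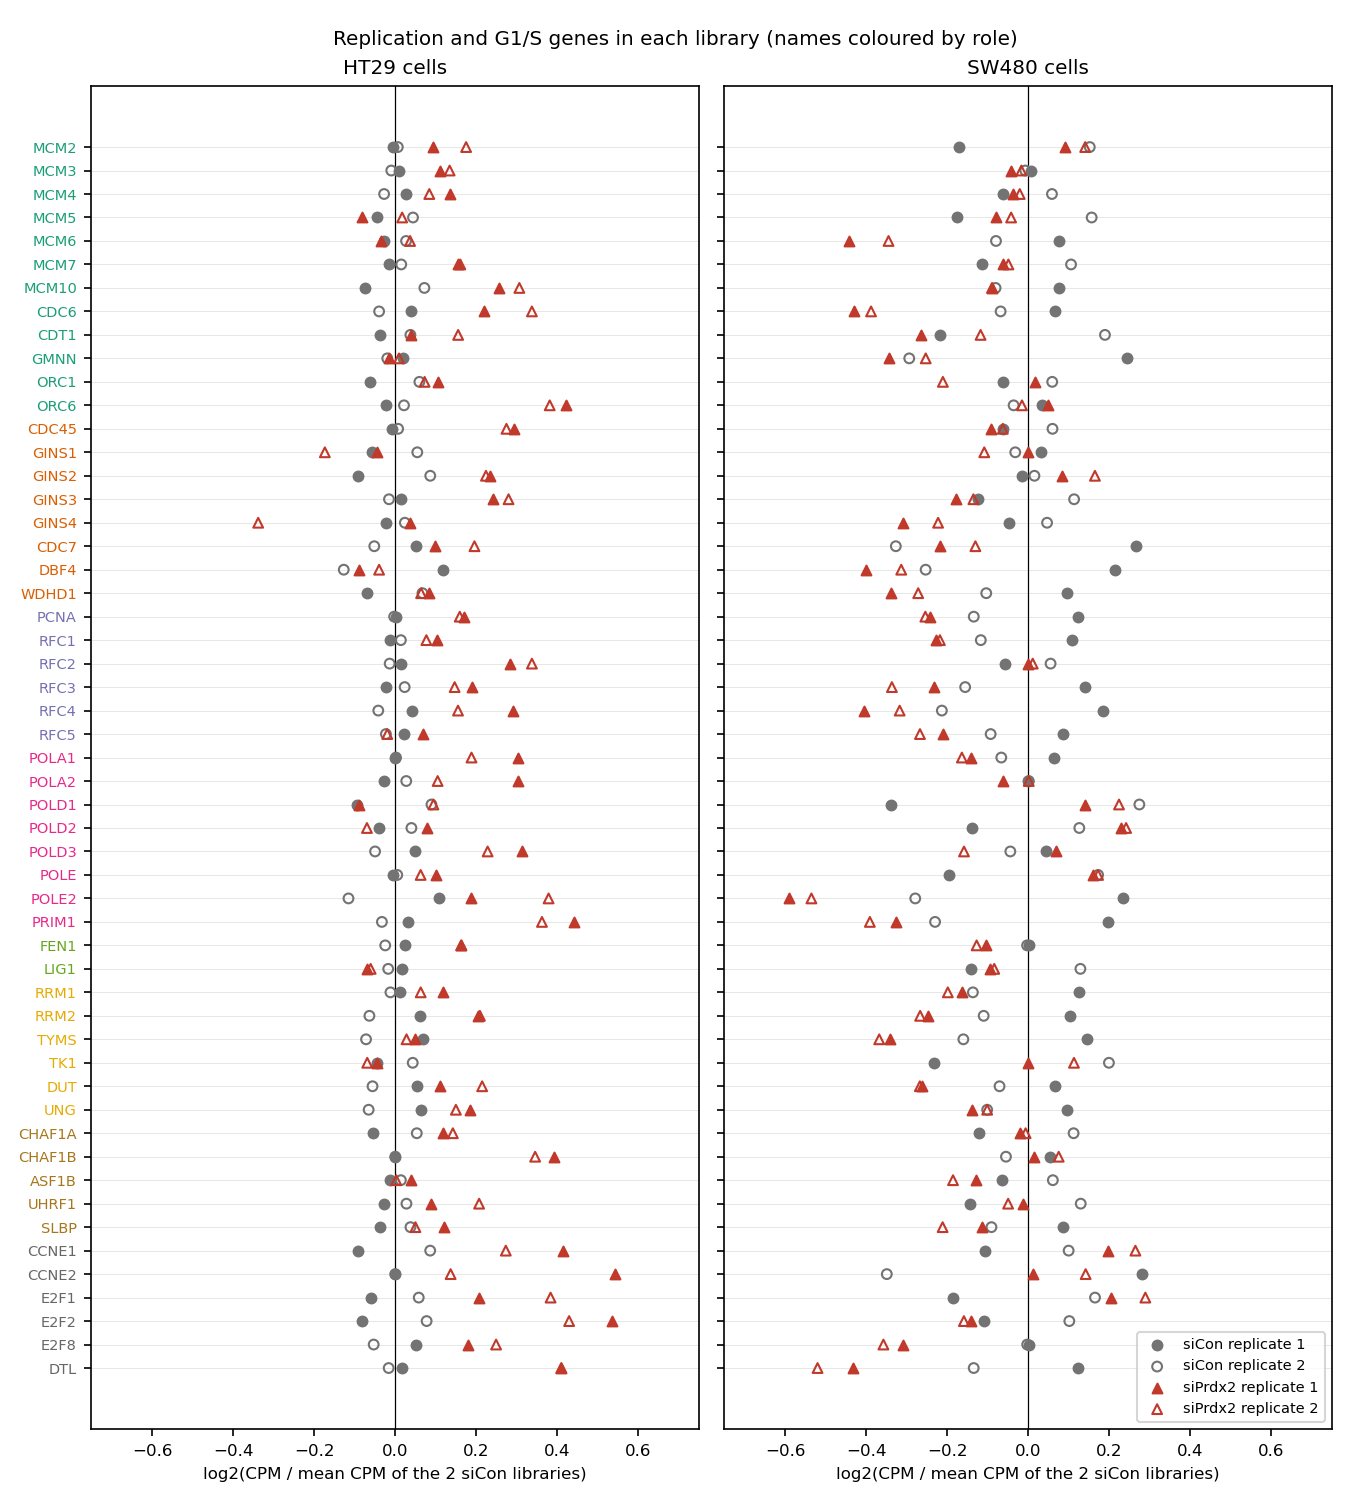
Each gene's CPM in each library as a log2 ratio to the mean of the 2 siCon libraries of its line, HT29 on the left and SW480 on the right; grey circles are siCon and red triangles siPrdx2, filled for replicate 1 and open for replicate 2, and gene names are coloured by role. In HT29 most triangles lie to the right of a narrow band of circles, and in SW480 the circles are spread more widely than in HT29 and 41 of the 53 genes have a log2 fold change below 0.

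The G1/S control genes had the highest median log2 fold change of the 8 roles, 0.36. Of these genes 4 of 6 were called, all higher, where 7.76% of all genes tested were called higher. DTL, the substrate receptor of the ubiquitin ligase that destroys CDT1 in S phase, was at 63.1 and 61.7 CPM in the siCon libraries and at 82.8 and 82.9 in the siPrdx2 libraries, a log2 fold change of 0.41 ± 0.05 (adjusted p = 3.79e-05). It had the smallest p of the 53 genes. E2F1, an activator of S phase genes, was at 59.7 and 64.8 CPM against 71.9 and 81.2 (0.30 ± 0.07, adjusted p = 0.00459). E2F2 rose by 0.49 ± 0.12 from 12 and 13.4 CPM to 18.4 and 17.1 (adjusted p = 0.00896), the largest fold change of the list in one of its least abundant genes. Cyclin E1, CCNE1, rose by 0.35 ± 0.11 (16 and 18.1 against 22.7 and 20.6 CPM, adjusted p = 0.0346), whereas cyclin E2, CCNE2, at 15.1 in both siCon libraries and 22 and 16.6 in the siPrdx2 libraries, did not pass the test (0.36 ± 0.13, adjusted p = 0.0691). In all 6 genes, the repressor E2F8 included (0.21 ± 0.08, adjusted p = 0.0791), the siPrdx2 libraries lay above the siCon libraries without overlap.

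Of the 12 licensing genes, 7 rose, where 7.76% of all genes were called higher, with a median of 0.11 over the group. ORC6, a subunit of the origin recognition complex, was at 39.4 and 40.6 CPM with siCon and at 53.6 and 52.1 with siPrdx2 (0.40 ± 0.07, adjusted p = 0.000312), while ORC1 of the same complex was at 30.7 and 33.4 against 34.5 and 33.7 (0.09 ± 0.08, adjusted p = 0.486). CDC6 was at 97.9 and 92.7 CPM against 111 and 120.4 (0.28 ± 0.05, adjusted p = 0.00123). MCM10, which helps to activate the loaded helicase, rose by 0.28 ± 0.07 (adjusted p = 0.0127). The 6 helicase subunits split. MCM7 rose by 0.16 ± 0.03 (434 and 443 CPM against 488 and 490.1, adjusted p = 0.000519), MCM2 by 0.14 ± 0.04, MCM3 by 0.12 ± 0.04 and MCM4 by 0.11 ± 0.03, each with siPrdx2 libraries above the siCon ones. MCM5 (-0.03 ± 0.06) and MCM6 (0.00 ± 0.05) were within their standard errors of 0 and their groups overlapped, as did those of GMNN (0.00 ± 0.06). CDT1 gave 0.10 ± 0.06 and did not pass the test.

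Of the 8 origin firing genes, 2 rose (25%), where 7.76% of all genes were called higher. CDC45 went from 81.2 and 82 CPM to 100 and 98.7, a log2 fold change of 0.28 ± 0.05 (adjusted p = 0.000527), with a clear gap between the groups. GINS2, at 32.7 and 37 against 41 and 40.7 CPM, passed narrowly (0.23 ± 0.08, adjusted p = 0.0494). The other GINS subunits ran from -0.14 ± 0.15 in GINS4 to 0.26 ± 0.10 in GINS3, and CDC7, DBF4 and the fork protein WDHD1 from -0.07 to 0.15, none past the threshold.

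The clamp and its loader gave 4 calls among 6 genes, all higher, where 7.76% of all genes were called higher. PCNA was at 262 and 261 CPM with siCon and at 294 and 292 with siPrdx2, so that an increase of only 1.12-fold exceeded the spread between its libraries (0.16 ± 0.03, adjusted p = 0.00239). RFC2 rose by 0.31 ± 0.05 (68.8 and 67.5 against 83 and 86.1 CPM, adjusted p = 0.000573), RFC4 by 0.22 ± 0.07 and RFC3 by 0.17 ± 0.05, while RFC1 (0.09 ± 0.04) and RFC5 (0.03 ± 0.07) did not pass. Among the 8 polymerase and primase genes the 4 calls were the primase subunit PRIM1 (36.2 and 34.6 against 48.1 and 45.5 CPM, 0.40 ± 0.07, adjusted p = 0.000623), POLD3 (77.6 and 72.5 against 93.2 and 87.9, 0.27 ± 0.06, adjusted p = 0.00214), POLA1 (0.25 ± 0.07) and its partner POLA2 (0.21 ± 0.06). The polymerase that starts strands was thus called in both of its subunits listed here and in PRIM1. The catalytic and second subunits of polymerase delta, POLD1 and POLD2, were each at 0.00, with standard errors of 0.07 and 0.05, and POLE gave 0.08 ± 0.04.

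The nucleotide genes gave 2 calls of 6, both higher, where 7.76% of all genes were called higher. RRM2 rose by 0.21 ± 0.04 (241 and 221 against 266 and 267 CPM, adjusted p = 0.0016), and UNG, which removes uracil from DNA, by 0.17 ± 0.05 (adjusted p = 0.0284). RRM1 at 0.09 ± 0.03 (adjusted p = 0.0673) and DUT at 0.16 ± 0.06 (adjusted p = 0.099) missed the threshold, and TYMS (0.04 ± 0.05) and TK1 (-0.06 ± 0.04) were near 0. The flap nuclease FEN1 rose by 0.16 ± 0.04 (adjusted p = 0.00875), and LIG1, which seals the same fragments, was at -0.07 ± 0.05. Of the 5 chromatin genes CHAF1B rose by 0.37 ± 0.09, from 19.6 CPM in both siCon libraries to 25.7 and 24.9 (adjusted p = 0.0113). CHAF1A of the same complex gave 0.13 ± 0.06, UHRF1 0.15 ± 0.06 (adjusted p = 0.086) and SLBP 0.08 ± 0.05, none past the threshold.

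The number of HT29 calls differed between fits. DESeq2 called 11 of the 53 genes and a fit of all 8 libraries together called 0 (20 at an unadjusted p under 0.05), against 6.72% and 1.25% of all genes, and leaving out siPrdx2 replicate 1 left 14, where 11.8% of all genes were called. None of these fits called any of the 53 genes lower, and the median of the 53 stayed at 0.16 in each.

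The remaining genes of the pathway and those of the next cell cycle phase were examined for context. Among 36 other replication and G1/S genes, 10 rose in HT29 cells and 2 fell, with a median log2 fold change of 0.08. Of all genes tested 7.76% were called higher and 9.82% lower. The increases included FBXO5, an inhibitor of the anaphase-promoting complex (0.40 ± 0.07), the helicase chaperone MCMBP (0.30 ± 0.05), and CLSPN, a checkpoint mediator at the fork (0.22 ± 0.06). The decreases were cyclin A2, CCNA2 (-0.31 ± 0.06), and the E2F partner TFDP1 (-0.18 ± 0.03). Of 20 G2 and mitosis genes, 15 fell and 0 rose, with a median of -0.36, led by the mitotic kinesin KIF20A (-0.98 ± 0.07) and the kinetochore protein CENPF (-0.47 ± 0.03). The fit of all 8 libraries called 4 of these 20 genes, all lower, and 0 of the 36, where 1.25% of all genes were called. All 20 lay below 0 except that limma on TPM put 1 of them above. The median of the 53 genes and that of the mitotic genes lay on opposite sides of the median of all genes in HT29 cells, although 7 of the 53 genes were below 0 too.

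**Figure D4:**
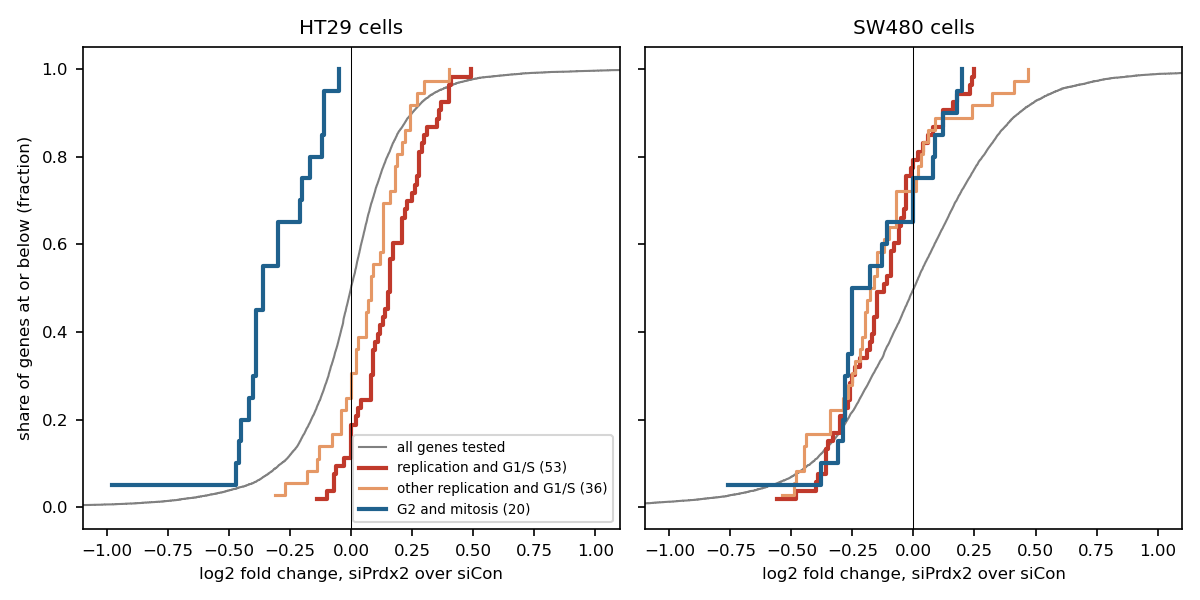
Cumulative share of genes at or below a given log2 fold change, siPrdx2 over siCon, in HT29 (left) and SW480 (right), for all genes tested, the 53 replication and G1/S genes, 36 other replication genes and 20 G2 and mitosis genes. In HT29 the curve of the 53 genes lies to the right of all genes (median 0.16) and the mitotic curve to the left (median -0.36), and in SW480 the medians are -0.12 and -0.21.

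In SW480 cells none of the 53 genes passed the same test, where 3.3% of all 14112 genes did (1.22% higher, 2.08% lower). Of these 466 calls 172 were higher, against 126 of 214 with limma on TPM and 1069 of 2272 with the GC correction. At an unadjusted p under 0.05, 12 of the 53 genes were reached in edgeR, a share below the 24.4% of all genes, and DESeq2 called 3 of the 53, all lower, where it called 4.86% of all genes. The median log2 fold change was -0.12 against 0.00 for all genes, with 41 of the 53 below 0 (49.8% of all genes) and 12 above it (50.2%), and limma on TPM gave a median of -0.03 with 29 below 0, on a scale where the median of all genes was 0.08. In 28 genes both siPrdx2 libraries lay under both siCon libraries, which held for 29% of all genes, and in 4 genes both lay above them (29.6%). The median standard error of the 53 log2 fold changes was 0.12, against 0.06 in HT29, so that changes of the size called in HT29 were mostly not detectable here.

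DTL, CDC6 and MCM6 had the smallest p-values of the 53 genes. DTL was at 104 and 87 CPM in the siCon libraries and at 70.8 and 66.6 in the siPrdx2 libraries, a log2 fold change of -0.48 ± 0.13 (adjusted p = 0.0724). CDC6 was at 193 and 176 CPM against 137 and 141 (-0.40 ± 0.11, adjusted p = 0.0737), and MCM6 at 285 and 256 against 199 and 213 (-0.39 ± 0.11, adjusted p = 0.0829). In all 3 the siPrdx2 libraries lay below the siCon libraries without overlap. The gap between the groups was wider than the gap between the siCon libraries in CDC6 and MCM6, and slightly narrower in DTL. These 3 genes were called lower by DESeq2 (adjusted p of 0.0432, 0.0427 and 0.0451 in the same order), by edgeR with a GC correction (-0.34, -0.31 and -0.28), by the fit of all 8 libraries, and without siCon replicate 1 (-0.34, -0.34 and -0.32) or replicate 2 (-0.60, -0.47 and -0.47). They were not called by limma, with RLE normalization, without the count filter, or when either siPrdx2 library was left out. POLE2, a subunit of polymerase epsilon, had the most negative value, -0.56 ± 0.21, but its siCon libraries, at 18.4 and 12.9 CPM, were far apart (10.4 and 10.8 with siPrdx2, adjusted p = 0.148).

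Among the other helicase subunits, MCM2 was at 308 and 385 CPM with siCon and at 369 and 382 with siPrdx2 (0.12 ± 0.12), MCM7 at 777 and 905 against 805 and 813 (-0.06 ± 0.10), and MCM3, MCM4 and MCM5 gave -0.03 ± 0.10, -0.03 ± 0.09 and -0.06 ± 0.13. In MCM2, MCM4, MCM5 and MCM7 both siPrdx2 values lay inside the range of the siCon libraries. PCNA was at 496 and 415 CPM against 385 and 382 (-0.25 ± 0.11, adjusted p = 0.207), RRM2 at 461 and 398 against 362 and 357 (-0.26 ± 0.11, adjusted p = 0.178) and TYMS at 221 and 179 against 158 and 155 (-0.35 ± 0.13, adjusted p = 0.138). In these 3 the siPrdx2 libraries were the lower ones, by a margin smaller than the difference between the siCon libraries, and without siCon replicate 1 or 2 they gave -0.11 or -0.37 (PCNA), -0.15 or -0.37 (RRM2) and -0.19 or -0.50 (TYMS). CDT1 gave -0.19 ± 0.16, GMNN -0.30 ± 0.17, CDC45 -0.08 ± 0.12, RRM1 -0.18 ± 0.12, SLBP -0.16 ± 0.11, UHRF1 -0.03 ± 0.12 and E2F2 -0.15 ± 0.16. Values above 0 were seen in E2F1 (58.4 and 74.5 against 76.6 and 81.2 CPM, 0.25 ± 0.14), CCNE1 (0.23 ± 0.17), POLE (0.16 ± 0.14), CCNE2 (0.08 ± 0.20) and TK1 (0.06 ± 0.14), none past the threshold.

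The number of calls turned on the siCon libraries. Without siCon replicate 1 edgeR called 16 of the 53 genes, 15 of them lower, and without replicate 2 it called 30, of which 24 were lower, in fits where the lone library is assumed to vary like the other group. The median of the 53 genes was -0.11 and -0.09 in these fits, with 44 and 37 of the 53 below 0. Opposite signs in the 2 fits were seen in MCM2, MCM4, MCM5, MCM7, CDT1, ORC6, CDC7, RFC2, POLD1, POLE, LIG1, TK1, CHAF1A, CHAF1B, UHRF1 and CCNE2. POLD3 was at 0.00 in one and -0.09 in the other. Across all genes those fits called 3405 genes (24.1%) and 7364 genes (52.2%), against 466 with all libraries. With the GC correction 8 genes were lower and 0 higher, where 16.9% of all genes were called: MCM5, MCM6, MCM7, CDC6, CDT1, TYMS, ASF1B and DTL. In the fit of all 8 libraries, 7 were lower (MCM6, CDC6, WDHD1, RRM2, TYMS, E2F8 and DTL) where 16.3% of all genes were called. Among the 36 other replication genes RPA1, a subunit of the single-strand binding protein, was called higher (0.47 ± 0.11), and among the 20 mitotic genes CENPF was called lower (-0.76 ± 0.10).

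Whether the lines differed in their response was tested as the log2 fold change in HT29 minus that in SW480, in 1 fit of all 8 libraries. In that fit PRDX2 itself differed by 0.84 ± 0.12 (edgeR's quasi-likelihood test, adjusted p = 0.0128), its fall being larger in SW480. Cell line and depth of the knockdown can therefore not be told apart. The lines also grew in different media, which cannot be told apart from line either. Of the 53 genes 2 passed, DTL and CDC6, against 1.12% of all 14772 genes tested (0.616% in that direction, 0.508% in the other). Of the 166 calls 91 were higher, against 44 of 103 with limma on TPM, which called 1 of the 53 genes. The DTL difference was 0.89 ± 0.13 (adjusted p = 0.0153), from the increase to 1.33-fold in HT29 and the value of 0.719-fold in SW480. The CDC6 difference was 0.69 ± 0.11 (adjusted p = 0.02), with 1.22-fold and 0.755-fold. For both genes every siPrdx2 library lay above the siCon libraries in HT29 and below them in SW480. Leaving out either siCon library of SW480 kept both calls (DTL 0.75 and 1.00, CDC6 0.62 and 0.74), and leaving out any 1 of the other 6 libraries lost them, with differences of 0.83 to 0.92 for DTL and 0.63 to 0.74 for CDC6. Without SW480 siCon replicate 1 the number of calls rose to 21 of the 53 genes, all higher in HT29, where 9.08% of all genes were called. Without replicate 2 it rose to 36, of which 31 were higher and 5 lower, where 35.5% of all genes were called. With the GC correction the differences were 0.75 and 0.58, and 18 of the 53 genes passed where 6.94% of all genes did, all 18 higher in HT29 than in SW480.

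The median difference over the 53 genes was 0.29, against 0.01 for all genes. Above 0 were 48 of the 53 genes (51.2% of all genes), and 5 were below it (48.8%). At an unadjusted p under 0.05 were 26 of them (19.2% of all genes). After DTL and CDC6 came PRIM1 (0.76 ± 0.18, adjusted p = 0.0711), RRM2 (0.47 ± 0.11, adjusted p = 0.0735) and E2F8 (0.55 ± 0.14, adjusted p = 0.0853), which missed the threshold, and POLE2 (0.85 ± 0.25) and E2F2 (0.65 ± 0.19) had wide errors. MCM6 gave 0.40 ± 0.11, PCNA 0.41 ± 0.11, TYMS 0.39 ± 0.14, CDC45 0.36 ± 0.11, GMNN 0.30 ± 0.20, CDT1 0.29 ± 0.18, CCNE2 0.28 ± 0.28, RRM1 0.28 ± 0.12 and SLBP 0.24 ± 0.12. The helicase subunits MCM7 (0.22 ± 0.10), MCM3 (0.15 ± 0.09), MCM4 (0.14 ± 0.09), MCM5 (0.03 ± 0.15) and MCM2 (0.02 ± 0.13) were closer to 0, as were UHRF1 (0.19 ± 0.14), CCNE1 (0.13 ± 0.19) and E2F1 (0.05 ± 0.16). POLE (-0.07 ± 0.14) and TK1 (-0.11 ± 0.16) were below 0. E2F1 and CCNE1 were above 0 in both lines, at 0.30 and 0.25 for E2F1 and at 0.35 and 0.23 for CCNE1. The SW480 values did not pass the test. Without siCon replicate 1 or 2 they were 0.08 or 0.43 for E2F1 and 0.13 or 0.33 for CCNE1. With the GC correction they were 0.01 for E2F1 and 0.18 for CCNE1. The differences between the lines were then 0.32 for E2F1 (edgeR's quasi-likelihood test, adjusted p = 0.0446) and 0.16 for CCNE1 (adjusted p = 0.614).

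Set side by side, 35 of the 53 genes were above 0 in HT29 and below 0 in SW480, 11 were above 0 in both, 6 were below 0 in both and 1 was below 0 in HT29 only. With 46 of the 53 above 0 in HT29 and 41 below 0 in SW480, most genes had to fall in the first class. These counts therefore show no opposite response gene by gene, and their share over all genes was not worked out. The log2 fold changes of the lines were not correlated across the 53 genes (Spearman rho 0.05, a description across genes that share their libraries). The SW480 values also followed GC content (rho 0.56), so this rho does not show that the responses were unrelated. Of the 25 genes that rose in HT29, 18 were below 0 in SW480, where 41 of all 53 were. The median in SW480 was -0.08 over the 25 and -0.16 over the other genes.

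**Figure D5:**
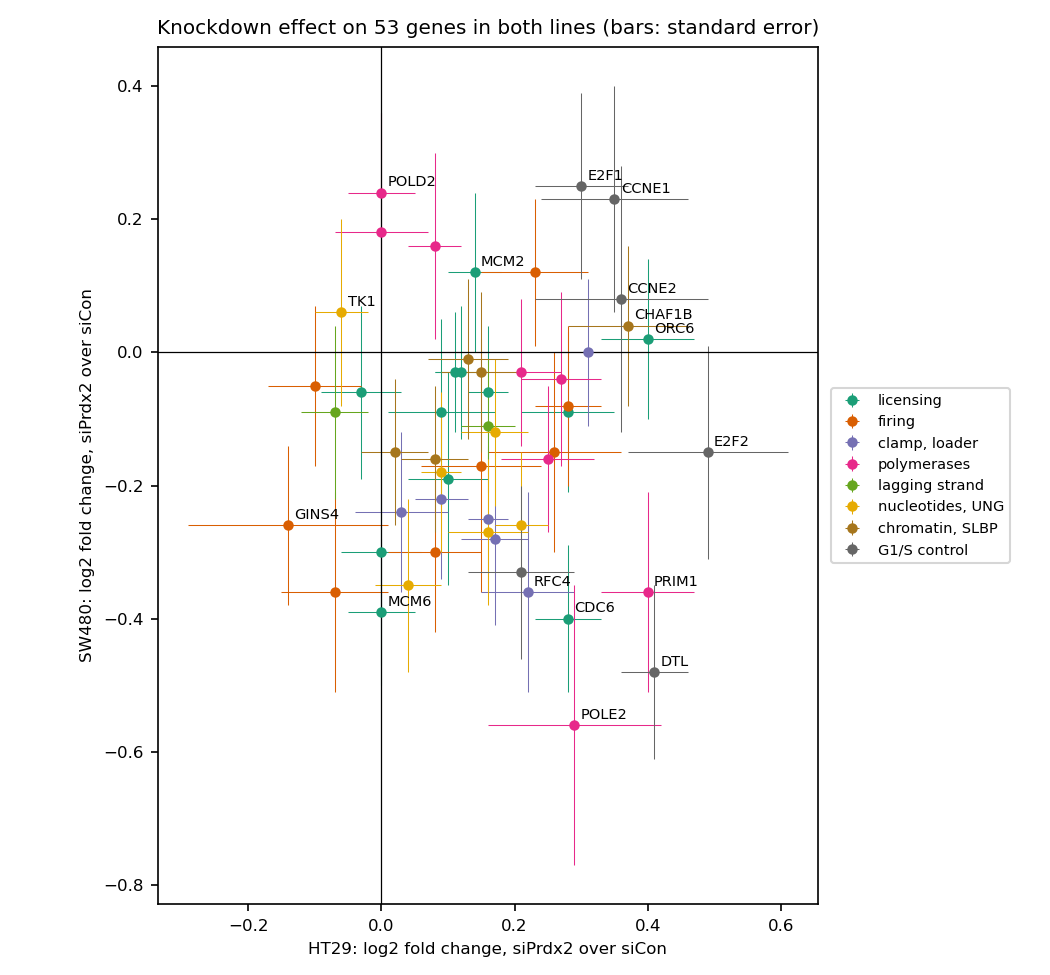
Log2 fold change after PRDX2 knockdown of the 53 genes in HT29 (horizontal) and in SW480 (vertical), with standard errors from edgeR as bars and colours for roles. DTL (0.41, -0.48) and CDC6 (0.28, -0.40) lie at the lower right, E2F1 (0.30, 0.25) and CCNE1 (0.35, 0.23) at the upper right, and MCM6 (0.00, -0.39) near the vertical line; the SW480 bars are wider.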

How the data were processed

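Per the labels, mRNA libraries of HT29 and SW480 cells (2 for each line and siRNA) were made with a TruSeq RNA v2 kit, which does not mark strand. The authors trimmed and aligned reads with MapSplice to hg19 and quantified genes with RSEM, a procedure stated for HT29 and taken to hold for SW480. They deposited, for each library, expected counts (estimated by RSEM), TPM and FPKM per gene symbol. FPKM was not used, and a marker gene is not reported here. The expected counts of the 53 genes were within 0.005 of a whole number in every library.

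Expected counts were rounded and tested with edgeR 4.0.16 (TMM, quasi-likelihood test, Benjamini-Hochberg adjustment over all genes tested, threshold 0.05) in R 4.3.3, keeping genes with at least 10 counts in 2 libraries of the fit. Within-line comparisons used the 4 libraries of a line, the difference between lines used all 8, and the control comparison used the 4 siCon libraries. CPM were scaled by TMM within each line and are not on a common scale between the lines. Errors are SE for log2 fold changes and SD for TPM (n = 2). With 2 libraries a group, an exact permutation test could not pass the threshold and was not used. Alternatives were DESeq2 1.42.0, log2-transformed TPM tested in limma 3.58.1 with a pseudocount of 1 or of 0.1, RLE normalization, no filter, a loess correction for transcript GC content, the replicate number as a block, all 8 libraries in a within-line fit, and leaving out each library. Tests were also tried on simulated counts, which took the same spread for all genes from these data and held no GC trend. Transcript GC content came from the longest GENCODE transcript of each gene on GRCh37. The level of 3 counts covers counting error only.

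The genes and lists were chosen with earlier results of these data known. Genes named in every comparison were MCM2 to MCM7, CDC6, CDT1, GMNN, CDC45, PCNA, POLE, RRM1, RRM2, TYMS, TK1, CCNE1, CCNE2, E2F1, E2F2, UHRF1 and SLBP, plus the 10 called genes with the smallest p whose groups did not overlap; the other names were chosen with their values seen, to complete the roles.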

Additional observations from a re-analysis of the deposited data

Results flagged for a closer look

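DTL and CDC6 were singled out because their response to PRDX2 knockdown differed between the lines in the test of the difference itself (edgeR's quasi-likelihood test). The log2 fold change in HT29 minus that in SW480 was 0.89 for DTL (adjusted p = 0.0153) and 0.69 for CDC6 (adjusted p = 0.02). The same test gave 0.84 for PRDX2 (adjusted p = 0.0128), which fell more in SW480, so line and depth of the knockdown cannot be told apart. Over the alternatives the adjusted p ran from 3.67e-08 to 0.165 for DTL and from 5.12e-07 to 0.186 for CDC6. Groups of 2 libraries are too small to look for single libraries that stand far from their group.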

How the results depend on the processing

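The causes of the changes listed here were not tested. In HT29, DESeq2 called 871 genes, 11 of the 53 replication and G1/S genes among them and all 11 higher. A joint fit of all 8 libraries called 185 genes and 0 of the 53. Leaving out 1 library of HT29 gave 14 (siPrdx2 replicate 1) to 21 of the 53 genes, all higher, in fits that called 11.8% to 15.8% of all genes. The median of the 53 genes stayed above 0 in every HT29 setting.

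In SW480, limma called 214 genes (177 with the pseudocount of 0.1), the GC correction 2272 and the fit of all 8 libraries 2415. Of the 53 genes DESeq2 called 3, the GC correction 8 and the fit of all 8 libraries 7, all lower. Leaving out 1 library gave 102 to 7364 genes and 0 to 30 of the 53, with 0 to 6 higher and 0 to 24 lower. The high ends came without siCon replicate 2.

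For the difference between the lines, 267 genes were called without the count filter, 311 by DESeq2, 103 and 43 by limma with the pseudocounts of 1 and 0.1, and 974 with the GC correction. Of the 53 genes 3 were called without the filter, 4 by DESeq2, 1 and 0 by limma and 18 with the GC correction, all higher in HT29. Leaving out 1 library gave 6 to 5243 genes and 0 to 36 of the 53, with 0 to 31 higher and 0 to 5 lower. Between the control cells, the GC correction put 15 of the 53 genes higher in HT29 and 22 in SW480, and leaving out 1 library gave 18 to 45 calls, with 15 to 36 higher in SW480 and 3 to 9 higher in HT29.

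The replicate numbers were also used as a block. Same-numbered libraries deviated together only weakly, with correlations across genes of 0.10 in HT29 and 0.11 in SW480 from 2 pairs each, so the numbers were not taken as a pairing. With the block, 28 of the 53 genes were called in HT29, where calls over all genes rose from 17.6% to 22.3%, 1727 genes (12.2%) and 3 of the 53 in SW480, and 3 of the 53 for the difference (1.33% of all genes). The block with the GC correction called 28 in HT29 (22.2% of all genes), 2496 genes and 9 of the 53 in SW480, and 957 genes and 17 of the 53 for the difference, with no call of the opposite direction.

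Some log2 fold changes changed sign, searched for only among the genes named in every comparison and the called genes added to them. Limma on TPM (pseudocount of 1) put the median of all genes at 0.06 in HT29, 0.08 in SW480, -0.02 for the difference and 0.15 between controls, against 0.00, 0.00, 0.01 and 0.04 in edgeR, and the values below were not corrected for that shift. With limma at either pseudocount these were, in HT29, GMNN (0.06), MCM5 (0.03) and TK1 (0.01), in SW480 CDC45 (0.01), MCM3, MCM4 and UHRF1 (0.06 each), MCM5 and MCM7 (0.04 each), for the difference MCM2 (-0.02) and MCM5 (-0.01), and between controls E2F1 (0.11, and 0.01 with RLE normalization and DESeq2). With the GC correction, with or without the block, these were MCM6 in HT29 (-0.01, and 0.00 with the block), MCM2 (-0.04), MCM4 (0.02) and TK1 (-0.20) in SW480, and POLE (0.05) and TK1 (0.18) for the difference. Others of the 53 genes changed sign with the GC correction too. Among them in SW480 were MCM10 (0.03), GINS1 (0.13), CDC7 (0.03), POLD1 (-0.09) and POLD3 (0.08), and for the difference POLD1 (0.15). Between controls GMNN and SLBP changed from 0.12 and 0.19 to -0.15 and -0.16 with the GC correction, which put the median of all genes at -0.22, and the fit of all 8 libraries gave 0.00 for GMNN in HT29.

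Among the genes searched, leaving out 1 library changed the sign of these values, given as lowest and highest. In HT29 they were GMNN (-0.02 to 0.02), MCM5 (-0.08 to 0.02), MCM6 (-0.03 to 0.05) and TYMS (-0.03 to 0.11). In SW480 they were CCNE2 (-0.21 to 0.42), CDT1 (-0.38 to 0.02), MCM2 (-0.04 to 0.28), MCM4 (-0.09 to 0.03), MCM5 (-0.22 to 0.11), MCM7 (-0.16 to 0.05), POLE (-0.02 to 0.35), TK1 (-0.14 to 0.28) and UHRF1 (-0.17 to 0.11). For the difference they were CCNE2 (-0.06 to 0.55), E2F1 (-0.15 to 0.22), MCM2 (-0.16 to 0.17), MCM5 (-0.16 to 0.19), POLE (-0.29 to 0.10) and TK1 (-0.35 to 0.08), and between controls E2F1 (-0.19 to 0.18) and GMNN (-0.15 to 0.37).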
